A study of Mus musculus with 2 samples.

Results

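Cells that carried RNA of both Neurod1 and Prox1 were studied in 2 libraries of brain cells from mice at postnatal day 10. The members were chosen on measured values: a barcode had at least 500 genes, at least 1000 UMIs (unique molecular identifiers, 1 for each captured RNA molecule) and at most 10% mitochondrial UMIs, with at least 1 UMI of Neurod1 and at least 1 of Prox1. It further held at most 1 UMI of Eomes, at most 1 of Dlx1, Dlx2 and Gad2 together, at most 1 of the division genes Top2a, Mki67, Cdk1 and Ube2c together, and 0 of Lhx6 and Trp73. These limits were met by 646 of 12350 cells in library 1 (5.23%, exact 95% interval 4.84 to 5.64%) and by 462 of 11948 in library 2 (3.87%, 3.53 to 4.23%), 1108 cells in all. The mean share was 4.55% ± 0.965 (SD, n = 2). The intervals cover counting error only.

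Both libraries belonged to 1 group: mice of the strain given as C57BL/J, brain with no region named, postnatal day 10. The labels name no treatment, no transgene and no sort of cells. The series names 6 mice and ties none of them to a library, so nothing says that the libraries came from separate animals. With no contrast between samples, cells were compared with other cells of the same library, and p-values measure only the spread between the 2 libraries, which may be technical.

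Prox1 is a homeobox factor that specifies and maintains the granule neurons of the dentate gyrus, and Neurod1 is a basic helix-loop-helix factor that these neurons need to survive and mature. In the dentate gyrus granule neurons are still being added after birth: radial glia give rise to dividing intermediate progenitors with Eomes, these to neuroblasts with Neurod1, and these to young granule neurons that pass through a stage with the calcium-binding protein calretinin (Calb2) before they take up calbindin (Calb1). Neurod1 is also strong in granule neurons of the cerebellum and Prox1 occurs in some interneurons, so neither gene alone marks the dentate gyrus.

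Within the quality limits 803 cells of library 1 and 543 of library 2 had a UMI of both genes. The limit on division genes removed 95 and 48 of them, that on Dlx1, Dlx2 and Gad2 62 and 36, that on Eomes 51 and 23, and that on Lhx6 and Trp73 3 and 5, where a cell could fail several limits. The median member of library 1 had 3613.5 UMIs from 1600.5 genes, and that of library 2 had 3568.5 UMIs from 1573 genes. Depth was thus alike in both libraries, and the depth of single members ran from 1003 to 13309 UMIs. Neurod1 reached 4 or more UMIs in 329 members of library 1 and 220 of library 2, while 102 and 89 members were chosen on a single Neurod1 UMI. Prox1 rested on 1 UMI in 218 and 165 members and reached 4 or more in 143 and 121.

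**Figure D1:**
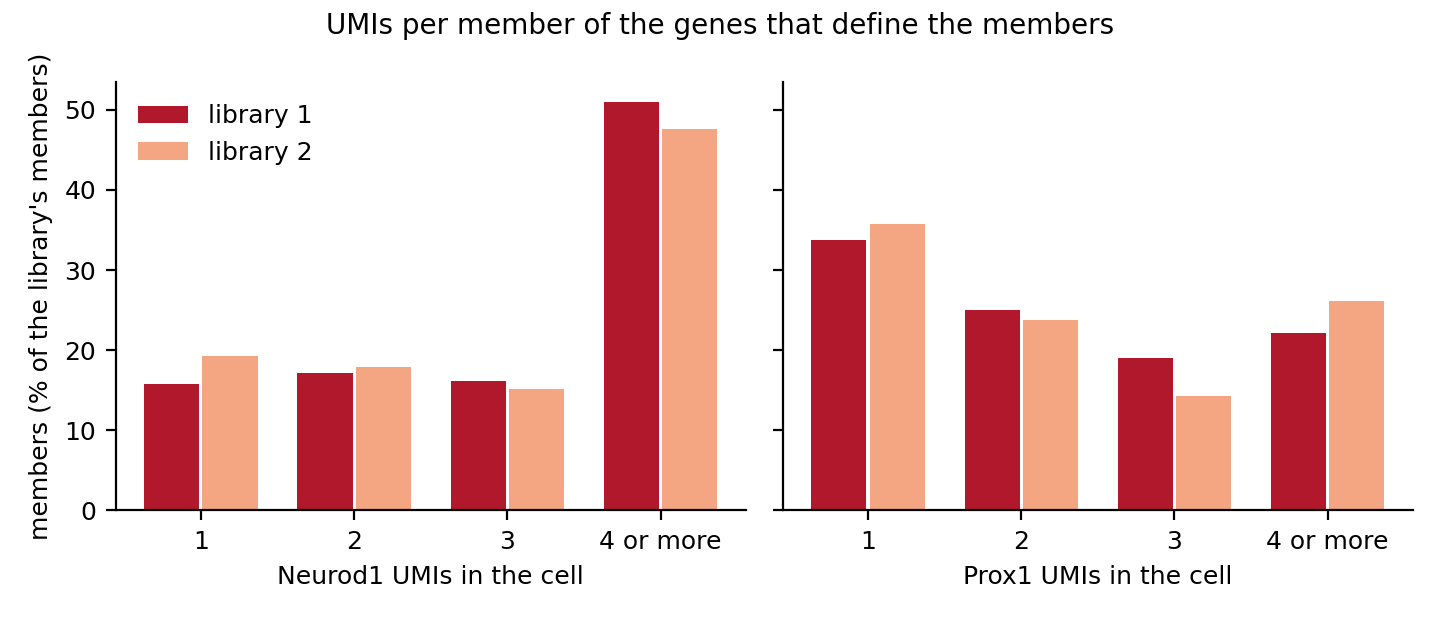
Share of members (y axis, % of the members of a library) with 1, 2, 3 or 4 or more UMIs of Neurod1 (left) and of Prox1 (right), with 1 bar for each library. The 4-or-more bars of Neurod1 hold 50.9% and 47.6% of members, and the 1-UMI bars of Prox1 hold 33.7% and 35.7%.

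Summed over the members of a library, Neurod1 stood at 1045 and 1049 CPM (the UMIs of the gene scaled to a common total for the summed cells) in libraries 1 and 2 and Prox1 at 680 and 723 CPM. Both chose the cells, so these levels describe the choice. The other given markers were not part of the rule. Calb2 stood at 1621 and 1603 CPM, Tac2, which encodes neurokinin B, at 335 and 325 CPM, and Bhlhe22, a helix-loop-helix factor of young pallial neurons, at 222 and 203 CPM. The libraries differed little in any of the 5 genes. In microglia of the same libraries, cells that should lack these genes, Calb2 stood at 76.9 and 13.5 CPM, Tac2 at 12.8 and 8.95 CPM and Bhlhe22 at 5.49 and 2.21 CPM. Calb2, Tac2 and Bhlhe22 were thus above that background in both libraries. Microglia cannot tell granule neurons from other young neurons, so these levels do not decide on the name granule-type neurons. After thinning to equal depth, 19.4% and 19.1% of members had a Tac2 UMI. The share was larger in Eomes cells (34.8% and 40%) and in Neurod1 cells without a Prox1 UMI (28.8% and 23.3%), classes defined below. For Calb2 and Bhlhe22 the share was larger in members than in either class in both libraries. Neurod1 and Prox1 cannot bear on the name, since every member had to hold both.

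The 2 genes that define the members and the peptide genes Tac2 and Gal, which divide them further, are shown by the 250 bases before their start sites (RefSeq, GRCm38.p6, the same assembly as mm10). Capitals mark 2 forms of the E-box, the site that helix-loop-helix factors bind: CAGATG on either strand and CAGCTG, which reads the same on both strands. These strings of letters cannot overlap one another. The windows lie at chr2:79456637-79456886 on the minus strand (Neurod1), chr1:190170828-190171077 on the minus strand (Prox1, the one of 2 windows nearest to the annotated start), chr10:127724228-127724477 on the plus strand (Tac2) and chr19:3414545-3414794 on the minus strand (Gal).
Neurod1: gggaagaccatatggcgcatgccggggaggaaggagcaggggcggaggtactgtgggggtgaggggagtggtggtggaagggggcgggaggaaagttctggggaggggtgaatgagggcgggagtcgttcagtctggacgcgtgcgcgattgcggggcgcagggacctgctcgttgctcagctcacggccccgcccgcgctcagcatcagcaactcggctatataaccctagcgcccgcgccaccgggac
Prox1: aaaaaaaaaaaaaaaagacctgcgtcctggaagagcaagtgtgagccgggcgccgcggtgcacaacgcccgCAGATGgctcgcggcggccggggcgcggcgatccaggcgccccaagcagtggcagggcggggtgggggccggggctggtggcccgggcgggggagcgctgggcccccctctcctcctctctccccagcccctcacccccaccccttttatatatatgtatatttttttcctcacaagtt
Tac2: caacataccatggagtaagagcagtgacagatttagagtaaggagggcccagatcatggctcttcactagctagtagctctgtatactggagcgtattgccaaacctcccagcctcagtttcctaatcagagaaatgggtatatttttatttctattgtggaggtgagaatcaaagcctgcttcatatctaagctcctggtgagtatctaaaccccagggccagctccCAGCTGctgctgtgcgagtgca
Gal: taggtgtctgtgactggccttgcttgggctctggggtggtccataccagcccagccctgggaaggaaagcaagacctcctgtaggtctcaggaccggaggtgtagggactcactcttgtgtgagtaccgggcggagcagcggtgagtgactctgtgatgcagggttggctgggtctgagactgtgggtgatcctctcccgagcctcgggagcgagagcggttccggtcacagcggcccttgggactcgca
Prox1 held 1 CAGATG, which begins 179 bases before the start, and Tac2 held 1 CAGCTG, 22 bases before the start. The windows of Neurod1 and Gal held neither string of letters. Of 20267 genes of the files with such a window, 13.3% held CAGATG and 12.4% held CAGCTG, so a match in 1 window is common. Among tested genes the shares were 9.06% and 11.0% of 8237 windows. Among genes called higher in members than in Dlx cells (defined with their test below) they were 9.70% and 14.7% of 701 windows. Among genes called lower they were 11.8% and 13.4% of 544 windows. Against Dlx cells, shares above those of tested genes were thus not particular to higher genes. Other comparisons differed. Against Eomes cells they were 10.8% and 15.04% of 685 higher windows, and 9.10% and 9.97% of 692 lower windows. Against Neurod1 cells without a Prox1 UMI they were 9.09% and 9.09% of 22 higher windows, and 15.8% and 14.9% of 101 lower windows. The differences between these shares were not tested. A match is only a string of letters and was not tested as a site.

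Comparisons used 3 other classes within the same quality limits. Neurod1 cells without a Prox1 UMI met every other limit of the members and numbered 305 and 303. Eomes cells, with at least 2 Eomes UMIs, numbered 143 and 55 and were taken as an earlier stage of the glutamatergic lineage. Whether members arise from cells like these was not tested. Eomes cells met the members' limits on Dlx1, Dlx2 and Gad2 and on Lhx6 and Trp73. With no limit on division genes, Neurod1 or Prox1, they could include dividing cells and cells with RNA of both member genes. Dlx cells, with at least 3 UMIs of Dlx1, Dlx2 and Gad2 together and none of Neurod1 or Eomes, numbered 2074 and 1930 and are young neurons of the inhibitory lineage. The median depth was 3393 and 2605 UMIs in the first class, 5666 and 6857 in Eomes cells and 2217 and 2122.5 in Dlx cells. Counts were summed per class and library and tested with edgeR's quasi-likelihood F test with the library as a block, over 10434 genes. A call needed an adjusted p (Benjamini-Hochberg) under 0.05, the same sign in both libraries and a difference of 1 or more on the log2 scale. The 12 rule genes and the given markers were left out of the tests. The classes were drawn on RNA of the same cells, and no p-value here bears on whether such classes exist.

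The series as a whole held 32486 barcodes. Members of library 2 held more red-cell and microglial RNA, whose source was not tested: the summed level of 5 erythroid genes was 2.03 CPM in library 1 and 4371 CPM in library 2, and that of 9 microglial genes was 89.4 and 624 CPM. Library 1 carried more RNA of the oligodendrocyte lineage, with 8 genes at 316 CPM in its members against 77.0 CPM in library 2. The libraries shared 90 barcodes, of which members held 1 in library 1 and 2 in library 2. A doublet caller marked 38 and 30 members, which were kept.

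The members carried the transcription factors of the hippocampus and the rest of the pallium. Zbtb20, needed for the hippocampal fate, stood at 2730 CPM in both libraries. Emx1, a homeobox factor of the dorsal telencephalon, stood at 212 and 211 CPM and Lhx2 at 235 and 228 CPM. After thinning each cell to 2000 UMIs, which left out 34 and 53 shallower members, 33.3% of members had a UMI of Emx1 in each library (exact 95% intervals 29.6 to 37.2% and 28.7 to 38.0%). Without thinning the shares were 48.5% and 44.6%. Thinned microglia, of 3636.5 and 4162 median UMIs before thinning, gave 0.943% and 0.275%, so the share in members was above that background.

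Genes of other granule and glutamatergic neurons were in part undetected and in part present. All 14 genes of a pyramidal neuron list had UMIs in members of both libraries, with a summed level of 534 and 558 CPM. Microglia held more of this list's RNA, at 1108 and 1102 CPM, as did Neurod1 cells without a Prox1 UMI, at 720 and 820 CPM. The sum in members thus does not mark pyramidal neurons. Single genes went both ways. Of 12 tested, Tbr1, Fezf2, Crym, Mpped1 and Tle4 were higher in members than in Dlx cells (41.7%, beside 9.01% of all tested genes). Foxp2, Cux1 and Cux2 were lower (25%, beside 7.18%). Against Eomes cells 2 were higher (16.7%, beside 8.87%) and 4 lower (33.3%, beside 8.65%). Of 14 genes on a cerebellar granule neuron list, Atoh1, Cbln3, Gabra6, Mab21l1 and En2 had 0 UMIs in the members of both libraries, which over the 4122733 UMIs summed allows up to 0.728 CPM of each. Barhl1 and Barhl2 had 0 UMIs in library 1 and 1 UMI each in library 2. The shares of thinned members with a UMI of a gene on that list other than Zic, Pax6 and Cntn2 were 0.654% and 0.489%, beside 0.165% of microglia in library 2 and none of 106 in library 1, which allows up to 3.42%. Other genes of that list were detected, among them the adhesion molecule Cntn2 at 45.5 and 40.3 CPM, Zic1 at 32.5 and 28.9 CPM and Pax6 at 21.1 and 22.9 CPM, and the whole list summed to 117 and 113 CPM. Gbx2 of the thalamus and Pou4f1 of the habenula also had 0 UMIs in both libraries. Lhx9, which is found in thalamus and in other regions, was on the thalamus and habenula list and stood at 61.0 and 72.2 CPM.

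Genes of mature granule neurons were low in the members but not all at the floor. Of 17 such genes 15 had a UMI in library 1 and 12 in library 2, with a summed level of 93.5 and 87.8 CPM. Calb1 had 1 UMI in library 1 and 0 in library 2, Tdo2 likewise 1 and 0, C1ql2 3 and 2, and Dsp 3 and 1. Mfge8, which other cell types also express, stood at 40.2 and 30.1 CPM and Tspan18, a tetraspanin, at 30.5 and 22.9 CPM. Slc17a7, the vesicular glutamate transporter of mature forebrain neurons, stood at 4.88 and 4.21 CPM, whereas Slc17a6, the form of younger neurons, stood at 37.0 and 39.7 CPM. Slc12a5, the chloride exporter of mature neurons, had 2 and 1 UMIs, and Slc12a2, the importer of young ones, stood at 32.1 and 30.1 CPM. Thinned members with a UMI of any of 17 mature granule genes made up 12.3% and 11.2%. Microglia gave 23.6% and 25.1% and hold more of this list's RNA, so they are no background for it. Genes of the immature stage ranged widely. Sox11 stood at 2977 and 2892 CPM, Igfbpl1 at 2607 and 2609 CPM, Dcx, a microtubule protein of migrating neurons, at 720 and 755 CPM and Sema3c, a secreted semaphorin, at 376 and 408 CPM. Of the 13 genes on the immature granule list, Fxyd7, Camk4 and Stc1 were too low to be tested, and Sdk2 stood at 2.03 and 1.20 CPM. After thinning 99.0% and 98.5% of members had a UMI of Igfbpl1, beside 8.49% and 7.11% of microglia.

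**Figure D2:**
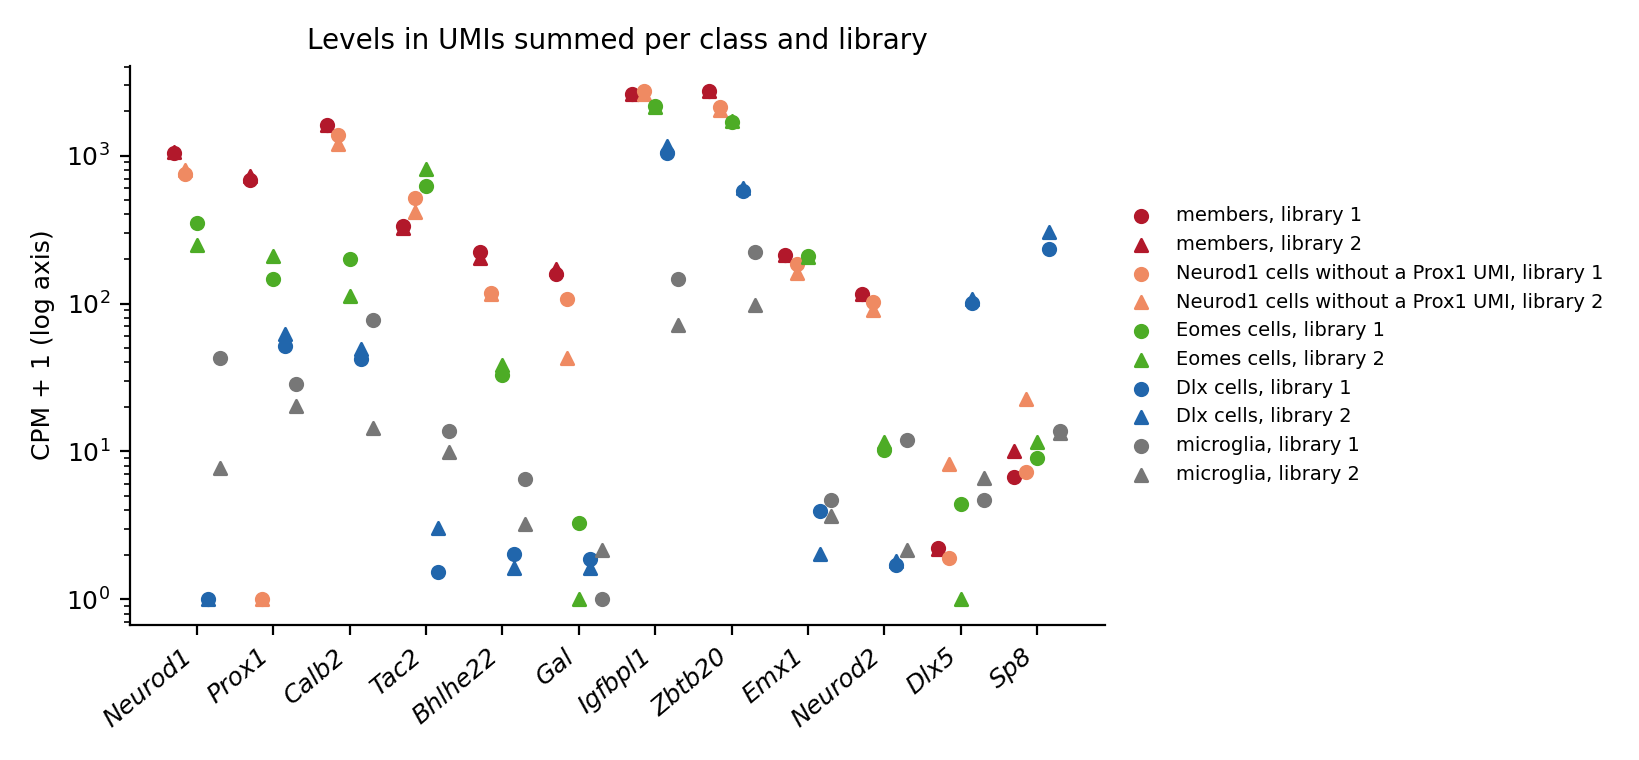
Levels (y axis, CPM + 1, log axis) of 12 genes in UMIs summed over each class, with a circle for library 1 and a triangle for library 2. Prox1 is at 0 in Neurod1 cells without it by the rule, Gal is highest in members, and Dlx5 and Sp8 are highest in Dlx cells.

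The nearest cells were those with Neurod1 and no Prox1 UMI, called cells without Prox1 below, and they differed from members in few genes. A count of 0 does not show that a cell lacked Prox1 RNA, since 33.7% and 35.7% of members rested on 1 Prox1 UMI. The class may thus hold cells like the members, and their number was not tested. Of 10434 genes, 27 were higher in members (0.259%) and 144 lower (1.38%). With an unadjusted p under 0.05 there were 1465. The DESeq2 test called 6 higher and 45 lower, and edgeR without the library block 5 and 19. Prox1 UMIs were present or absent by the rule. As a description, Neurod1 stood at 755 and 793 CPM and Calb2 at 1387 and 1196 CPM in cells without Prox1, both below the members. Tac2 went the other way, with 516 and 412 CPM in cells without Prox1 and 335 and 325 CPM in members.

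Dab1, the intracellular adaptor of reelin signalling that positions migrating neurons, was at 131 and 106 CPM in members and at 57.3 and 34.9 CPM in cells without Prox1. Members thus exceeded the other cells in both libraries without overlap, with a log2 fold change of 1.37 ± 0.17 (SE; adjusted p = 0.000113, edgeR quasi-likelihood F test). The gene lies at chr4:103619359-104744844 on the plus strand (GENCODE M21, mm10). Adamts18, a secreted metalloprotease at chr8:113697126-113848738 on the minus strand, was at 150.0 and 169 CPM in members and at 62.7 and 62.5 CPM in the others. Its log2 fold change was 1.37 ± 0.16 (adjusted p = 3.5e-05, edgeR). Of the 10 genes named as higher, these 2 kept their call in each of 12 alternative fits, between 1.25 and 1.52 for Dab1 and between 1.19 and 1.56 for Adamts18.

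The other 8 named genes lost their call in at least 3 of the alternative fits. Sema5a, a transmembrane semaphorin, was at 240 and 261 CPM in members and 127 and 97.3 CPM in cells without Prox1 (2.26-fold). Nrgn, a postsynaptic calmodulin-binding protein, was at 105 and 121 CPM against 58.2 and 45.7 CPM (2.16-fold). Gal, the gene of the neuropeptide galanin, was at 157 and 169 CPM against 106 and 42.1 CPM (2.20-fold). The members agreed within each pair, so the gap of Gal between libraries lay in the cells without Prox1, and its log2 ratio was 0.59 in library 1 and 2.03 in library 2. Socs2, a suppressor of cytokine signalling, Hecw1, Bach2, Kitl, the ligand of the receptor Kit, and Cacna1c, an L-type calcium channel, were 2.08 to 2.21 times as high in members. Among 34 tested guidance genes Dab1, Epha7 and the semaphorin coreceptor Nrp2 were higher and Unc5d, Robo1, Robo2, Epha3, Epha5 and Efnb2 lower. Robo1 and Robo2 are receptors of Slit proteins and Unc5d a receptor of netrins.

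Of 7 tested olfactory bulb neuroblast genes 3 were lower in members, Meis2, Robo2 and Etv1, and of 12 tested pyramidal neuron genes 2, Pou3f1 and Mpped1. Meis2, a homeobox cofactor, was at 41.1 and 46.9 CPM in members and at 171 and 302 CPM in cells without Prox1 (log2 fold change -2.35 ± 0.19, adjusted p = 8.75e-07, edgeR). Lmo1, a LIM-only cofactor, was at 13.0 and 9.02 CPM in members and 60.9 and 92.5 CPM in the others (-2.70 ± 0.28). Pou3f2, a POU factor of upper-layer neurons, was at 24.4 and 24.7 CPM against 74.4 and 123 CPM (-1.92 ± 0.20). Epha5, an ephrin receptor, was at 22.8 and 17.4 CPM against 71.7 and 75.7 CPM (-1.82 ± 0.20). These 4 were the named lower genes that kept their call in all 12 alternative fits. Mpped1 was at 67.9 and 59.6 CPM in members and 193 and 177 CPM without Prox1.

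Several lower genes rested on few cells or are markers of other cell types. Atad2 and Haus8 were high in library 1 only, where 1 cell without Prox1 gave 91.7% and 89.7% of their UMIs, and 1 cell gave 52.7% of the UMIs of Gm10457. Rgs5 of mural cells, too, came in part from 1 cell without Prox1 in each library, which gave 40% and 50% of its UMIs. In members the highest cell gave 41.7% and 42.9%. Olig1 of the oligodendrocyte lineage and Bcan, a glial matrix protein, were the remaining named genes. All 8 endothelial and mural markers had UMIs in cells without Prox1, with a summed level of 188 and 135 CPM, against 5 and 4 of 8 markers and 70.7 and 13.2 CPM in members. All 8 astrocyte markers had UMIs in both classes, at 755 and 418 CPM without Prox1 and 371 and 327 CPM in members. For the 8 oligodendrocyte markers these sums were 442 and 167 CPM without Prox1, with 1 marker at 0 in library 2 of both classes, and 316 and 77.0 CPM in members. When cells with more than 3 UMIs of such markers were left out of every class, 23 genes were higher in members and 66 lower. When both classes were held to at least 2 Neurod1 UMIs, 9 were higher and 27 lower. Of the 171 calls, 62 remained in the first of these fits and 28 in the second.

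**Figure D3:**
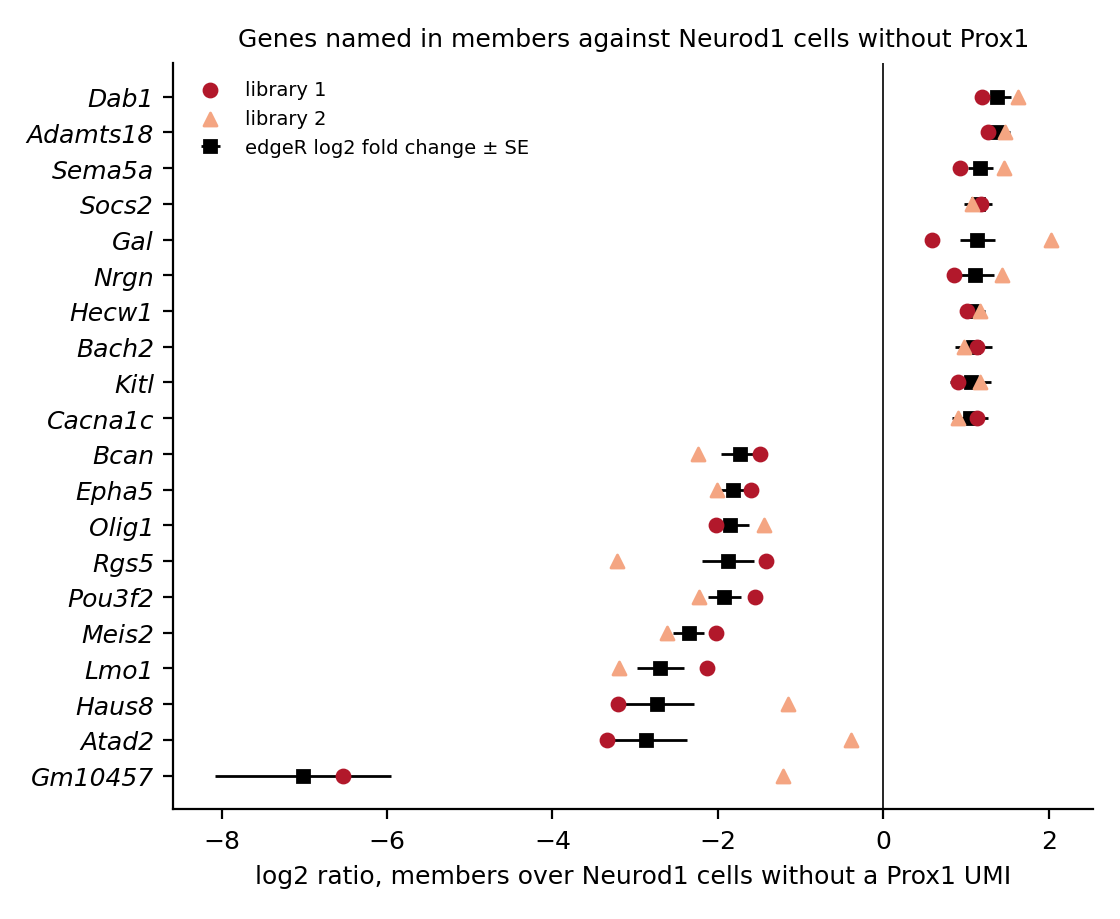
Log2 ratio of members over Neurod1 cells without a Prox1 UMI (x axis) for the 20 named genes (y axis), with the ratio in library 1 (circle), in library 2 (triangle) and the edgeR estimate with its standard error (square). The 10 higher genes lie between 0.59 and 2.03 in single libraries, and Gm10457, Atad2, Haus8 and Rgs5 show the widest gaps between libraries.

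No regulator of the hippocampus or pallium was called in that comparison. The 13 tested regulators had a median log2 fold change of 0.31, beside 0.00 for all genes. Nfia, at 3515 and 3591 CPM in members and 2565 and 2696 CPM without Prox1, had a log2 fold change of 0.47 ± 0.05 (adjusted p = 2.97e-05, edgeR), short of the size a call needs. Zbtb20 had 0.43 ± 0.06. Of 10 tested immature granule genes only Gal was called. Of 6 tested mature granule genes 3 were lower in members, C1ql3, Kcnip3 and Mfge8, and 0 higher, beside 1.38% of all tested genes lower. The mature list summed to 93.5 and 87.8 CPM in members and 171 and 168 CPM in cells without Prox1. Of 12 tested progenitor genes Fabp7, Slc1a3, Sox9 and Hes5 were lower in members, and all 4 are also genes of astrocytes or radial glia, whose markers moved with this comparison. Their part in the result was not tested.

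Against Eomes cells 926 genes were higher in members (8.87% of those tested) and 903 lower (8.65%). Summed levels were higher in members for synaptic genes, at 2144 and 2064 CPM against 1116 and 974 CPM in Eomes cells, and for channels, at 540 and 541 CPM against 243 and 252 CPM. Genes of division and of the progenitor state were higher in Eomes cells. Eomes itself and the division genes of the rule set the classes apart by choice. Lower genes were led by genes of dividing cells: Cdc25c, Prc1, Hmmr, Tpx2, Psrc1, Cdkn3, Aurkb, Sgo1, Kif2c and Neil3. Each stood at 45.1 CPM or more in every library of Eomes cells and at 3.61 CPM or less in members. These genes were not in the rule, but they rise and fall with the 4 that were, and they support nothing here.

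Of the genes higher in members, Dok6, an adaptor of receptor tyrosine kinases, was at 57.3 and 71.6 CPM in members and had 0 UMIs in Eomes cells, which makes it at least 26.3-fold higher, with a floor of 3 UMIs over both libraries. Gal had 668 UMIs in members and 2 in Eomes cells, a ratio of 101 with an exact 95% counting interval of 28.0 to 839. Nrgn was at 105 and 121 CPM against 4.57 and 5.31 CPM, and Sema5a at 240 and 261 CPM against 9.14 and 18.6 CPM. Both were thus above Eomes cells in each library without overlap, with log2 fold changes of 4.52 ± 0.44 and 4.43 ± 0.28 (adjusted p = 1.89e-07 and 4.43e-10, edgeR). Fabp3, a fatty acid carrier, the splicing factor Rbfox1, the collagen Col12a1, the phosphatase Ptpro and Ppp1r16b were also among the named genes. All 20 named genes kept their call in each of the 12 alternative fits.

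Of 23 tested cytoskeletal genes of young neurons, 12 were higher in members and 0 lower, with a median log2 fold change of 1.01 beside 0.02 for all genes. Stmn2, a tubulin-binding protein of growth cones, was at 784 and 746 CPM in members and 88.0 and 87.6 CPM in Eomes cells (8.77-fold). Mapt, the gene of tau, was at 300.0 and 280 CPM against 32.0 and 23.9 CPM (10.3-fold). Map1b and Tubb3 were 4.22-fold and 2.98-fold higher, and Dcx 2.02-fold.

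Of 19 tested sodium, potassium and calcium channel genes 13 were higher and 0 lower. Scn3a, the sodium channel of immature neurons, was at 45.9 and 48.1 CPM against 10.3 and 13.3 CPM. Cacna1c was at 63.0 and 52.9 CPM against 13.7 and 5.31 CPM. Of 26 synaptic genes 16 were higher and 0 lower. Camk2b, a kinase subunit of dendrites and growth cones, was at 125 and 131 CPM in members and 10.3 and 7.96 CPM in Eomes cells (13.7-fold), and the vesicle proteins Syt1 and Vamp2 were 7.50-fold and 2.70-fold higher.

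Of 14 tested genes of glutamate release and reception 6 were higher: the AMPA receptor genes Gria1 and Gria2, the NMDA receptor genes Grin1 and Grin2b, the kainate receptor gene Grik4 and the metabotropic receptor gene Grm5. Grin2b was at 132 and 145 CPM against 12.6 and 18.6 CPM (9.56-fold). Of 9 tested GABA receptor and chloride transport genes 5 were higher, among them Gabra2, at 74.8 and 93.2 CPM in members and 19.4 and 42.5 CPM in Eomes cells.

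Regulators differed in part. Neurod2, a later member of the same family as Neurod1, was at 115 and 114 CPM in members and 9.14 and 10.6 CPM in Eomes cells (12.2-fold). Bcl11b, a zinc finger factor of postmitotic neurons, had 188 UMIs in members and 1 in Eomes cells, a ratio of 57.1 with a counting interval of 10.1 to 2266. Lhx2 was lower, at 235 and 228 CPM in members and 584 and 552 CPM in Eomes cells (log2 fold change -1.26 ± 0.11, adjusted p = 2.14e-08, edgeR). Emx1 did not pass, at 212 and 211 CPM against 208 and 204 CPM. Neurog2, Neurod4, Insm1 and Hes5, which act before or at cell cycle exit, were lower in members: Neurog2 stood at 12.6 and 10.8 CPM against 115 and 114 CPM. Of 12 tested progenitor genes 11 were lower and 0 higher. Of 6 tested genes on the cerebellar granule list Zic1, Zic2, Zic4, Zic5 and Pax6 were lower in members and Cntn2 higher. Of 7 tested olfactory bulb neuroblast genes Meis2, Robo2 and Etv1 were lower and Prokr2 higher. Whether the Eomes cells belong to the lineage of the members was not tested.

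Guidance genes differed in both directions, 12 of 34 higher and 5 lower. Sema3c was at 376 and 408 CPM in members against 102 and 103 CPM in Eomes cells (3.85-fold). Its receptors Nrp1 and Nrp2 were 2.07-fold and 3.19-fold higher in the same cells. Dab1 was 7.12-fold higher. Cxcr4, the chemokine receptor of migrating precursors, was lower, at 29.7 and 28.3 CPM against 90.3 and 74.3 CPM, as were Robo2, Unc5d, Efnb2 and Slit1. Hba-a1 and Hba-a2, Mbp and Olig1 were also called higher in members. They are genes of red cells and oligodendrocytes: Hba-a1 stood at 0.813 CPM in library 1 and 981 CPM in library 2 of members, and Mbp at 117 and 8.42 CPM, so each followed 1 library.

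Against Dlx cells 940 genes were higher in members (9.01% of those tested) and 749 lower (7.18%), where the DESeq2 test called 448 lower. Regulators of the pallium were mostly higher in members. Of 13 regulators of hippocampus and pallium 11 were higher in members and 0 lower, with a median log2 fold change of 3.04, beside -0.02 for all genes. Emx1 was at 212 and 211 CPM against 2.95 and 1.03 CPM (98.4-fold), Zbtb18, a repressor in pallial neurons, at 671 and 635 CPM against 76.1 and 77.2 CPM (8.37-fold), and Zbtb20 at 2730 CPM in both libraries against 573 and 608 CPM (4.55-fold). Bcl11b, which both lineages use, was not called.

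Named higher genes also included 3 helix-loop-helix factors, Neurod2, Neurod6 and Nhlh2. Nhlh2 was at 91.9 and 99.9 CPM in members and 0.520 and 0.616 CPM in Dlx cells (log2 fold change 7.25 ± 0.28, adjusted p = 1.12e-13, edgeR). Its relative Nhlh1 had 0 UMIs in Dlx cells and was at least 141-fold higher in members. Tbr1, a T-box factor of glutamatergic neurons, was at 90.2 and 78.2 CPM against 0.866 and 0.411 CPM (117-fold). Cldn3, a tight junction protein, had 0 UMIs in Dlx cells and was at least 192-fold higher. Gal had 668 UMIs in members and 8 in Dlx cells. The adrenergic receptor gene Adra2c, Rerg and Adamts18 completed the named genes.

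Dlx cells were chosen on Dlx1, Dlx2 and Gad2, so genes tied to these were low in members by construction: 11 of 13 tested inhibitory genes were lower, with Dlx5, Dlx6os1, Dlx1as, Sp8 and Sp9 among those named. Dlx1as and Dlx6os1 overlap Dlx genes and their counts are uncertain where the strand setting is not given. Gad1, which the rule did not use, was at 15.4 and 16.8 CPM in members, 145 and 172 CPM in Dlx cells, 0 and 2.65 CPM in Eomes cells and 2.69 and 7.21 CPM in Neurod1 cells without Prox1. Gad1 was higher in members than in cells without Prox1 (log2 fold change 1.82 ± 0.43, adjusted p = 0.0223, edgeR). After thinning 2.78% and 3.67% of members had a Gad1 UMI, beside 0.943% and 1.27% of microglia. Nr2f2 alone of the inhibitory list was higher in members than in Dlx cells, at 80.9 and 84.2 CPM against 38.8 and 31.0 CPM.

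Against Dlx cells most functional lists held calls in both directions. Cytoskeletal genes gave 2 higher and 2 lower of 23, with Stmn2 lower, at 784 and 746 CPM in members and 1757 and 2156 CPM in Dlx cells. Channels gave 10 higher and 1 lower of 19, synaptic genes 14 higher and 2 lower of 26, and glutamate genes 6 higher and 2 lower of 14. Slc17a6 was at 37.0 and 39.7 CPM in members and 0.693 and 0.616 CPM in Dlx cells (52.8-fold). Of 34 guidance genes 15 were higher, led by Slit3 and Sema3c, and 5 lower. Sema3c was at 5.89 and 8.01 CPM in Dlx cells, 55.5-fold below the members, and Robo2, which olfactory neuroblasts use, was 17.2-fold lower in members. Of 7 olfactory bulb neuroblast genes 6 were lower and 0 higher, among them Meis2 (22.5-fold lower) and Etv1 (27.2-fold lower).

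**Figure D4:**
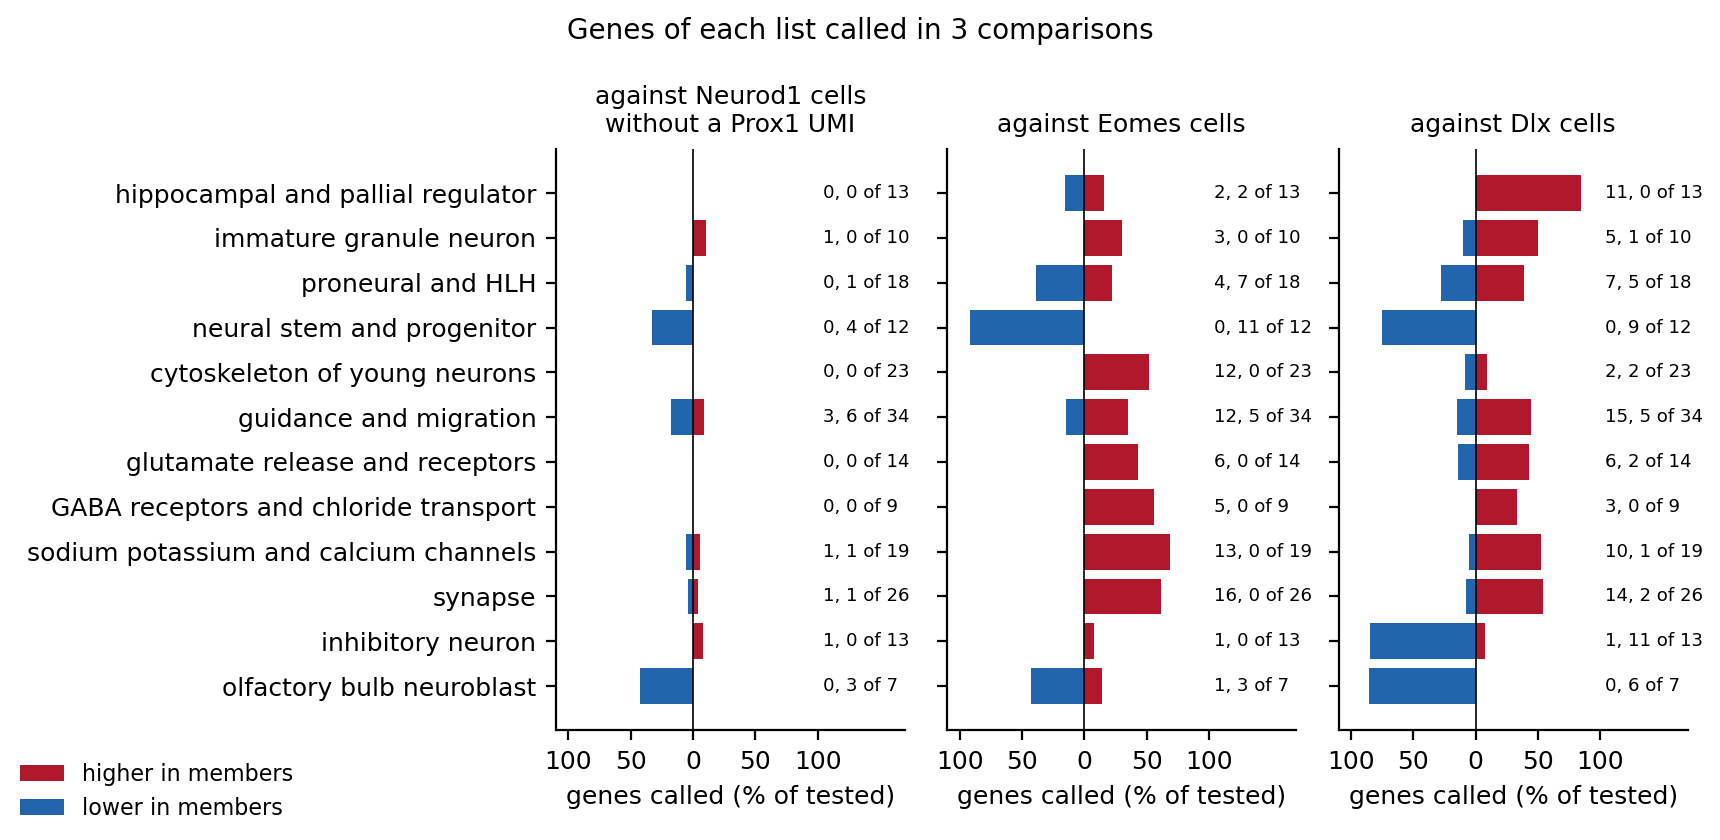
Share of the tested genes of 12 lists (x axis, %) that were called higher (right of 0) or lower (left of 0) in members, against each of 3 classes, with the counts of higher and lower genes of those tested printed beside each bar. Against Eomes cells 11 of 12 progenitor genes are lower, and against Dlx cells 11 of 13 pallial regulators are higher, 11 of 13 inhibitory genes lower and 6 of 7 olfactory bulb neuroblast genes lower.

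Members were then compared among themselves. Most had a Calb2 UMI: 575 of 646 in library 1 and 403 of 462 in library 2, or 81.5% and 85.3% of members thinned to equal depth, beside 2.83% and 1.93% of microglia. Against the 71 and 59 members without a Calb2 UMI, of 9877 genes tested 1 was higher in Calb2 members (0.0101%) and 9 were lower (0.0911%). With an unadjusted p under 0.05 there were 858. Mpped1 was at 54.5 and 47.7 CPM in Calb2 members and 183 and 161 CPM in those without (log2 fold change -1.69 ± 0.23, adjusted p = 0.00168, edgeR). Ccnd2, a D-type cyclin of progenitors, was at 82.6 and 76.6 CPM against 155 and 287 CPM, and Hes5, a target of Notch, at 54.9 and 32.9 CPM against 128 and 97.6 CPM. The RNA-binding protein gene Elavl4, Mfge8 and Serinc3 were lower too, and Celf3, another RNA-binding protein gene, was higher, at 119 and 136 CPM against 38.9 and 74.7 CPM. The smaller class held 257381 and 174114 UMIs. None of these 7 named calls remained without the library block, with at least 2 UMIs of Neurod1 and Prox1, or with 0 UMIs of the excluded genes. Mfge8, Serinc3, Hes5 and Elavl4 also lost their call when cells with more than 3 UMIs of other-cell markers were left out. Endothelial and mural markers summed to 56.3 and 8.06 CPM in Calb2 members and 194 and 57.4 CPM in the others. Microglial markers summed to 99.0 and 498 CPM against 7.77 and 1700 CPM. The part of such RNA in these calls was not tested.

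Tac2 and Gal divided the members further. Tac2 without Gal was found in 139 and 108 members (21.5% and 23.4%), Gal without Tac2 in 147 and 100 (22.8% and 21.6%), both in 19 and 10 (2.94% and 2.16%) and neither in 341 and 244. After thinning 19.4% and 19.1% of members had a Tac2 UMI and 17.0% and 20.5% a Gal UMI, beside 0.386% and 0.110% of microglia in library 2. In library 1 no microglia had either, which 106 cells hold below 3.42% (exact 95% bound). The split was chosen after values had been seen, so its levels are a description with no test. Depth was alike, with medians of 3702 and 3746 UMIs in Tac2 members and 3630 and 3584 in Gal members.

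Members with Tac2 held more RNA of Lhx2, Emx1, Mpped1 and Insm1. Of these Lhx2, Mpped1 and Insm1 were called lower in members than in Eomes cells. Lhx2 was at 445 and 363 CPM in them and at 122 and 116 CPM in Gal members, and Emx1 at 330 and 283 CPM against 143 and 153 CPM. Eomes was at 61.1 and 30.7 CPM against 3.54 and 10.7 CPM. The rule held every member to at most 1 Eomes UMI, so these Eomes levels depend on the choice of cells. Mpped1 was at 192 and 142 CPM against 3.54 and 2.69 CPM, the widest gap among the 28 genes set side by side other than Tac2 and Gal. Insm1 was at 46.7 and 21.2 CPM against 14.2 and 10.7 CPM.

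Members with Gal held more RNA of Nrgn, Dab1, Grin2b, Camk2b and Mapt, all called higher in members than in Eomes cells. Other genes with that call did not follow: Tubb3 was lower in Gal members, at 1165 and 1386 CPM against 1611 and 1451 CPM in Tac2 members, Dcx was at 733 and 663 CPM against 722 and 769 CPM, and Stmn2 at 827 and 604 CPM against 625 and 604 CPM. Nrgn was at 159 and 207 CPM in them and at 16.2 and 40.1 CPM in Tac2 members. Dab1 was at 204 and 201 CPM against 35.9 and 21.2 CPM, Grin2b at 213 and 215 CPM against 34.1 and 59.0 CPM, Camk2b at 165 and 177 CPM against 41.3 and 77.9 CPM, and Mapt at 342 and 320 CPM against 160 and 186 CPM. Prox1 itself was higher in Gal members, at 824 and 817 CPM against 501 and 597 CPM, whereas Neurod1 was near equal, at 1109 and 1096 CPM against 1051 and 1010 CPM. Calb2 was at 1254 and 1448 CPM in Gal members and 1771 and 1684 CPM in Tac2 members. In both libraries the members with neither peptide lay between the others for Lhx2, Emx1, Mpped1, Nrgn, Dab1, Grin2b and Camk2b, and for Eomes, which the rule limits. Mpped1 was at 45.2 and 44.7 CPM in them and Dab1 at 140 and 110 CPM. These are sums over different cells of 2 libraries, not a time course.

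**Figure D5:**
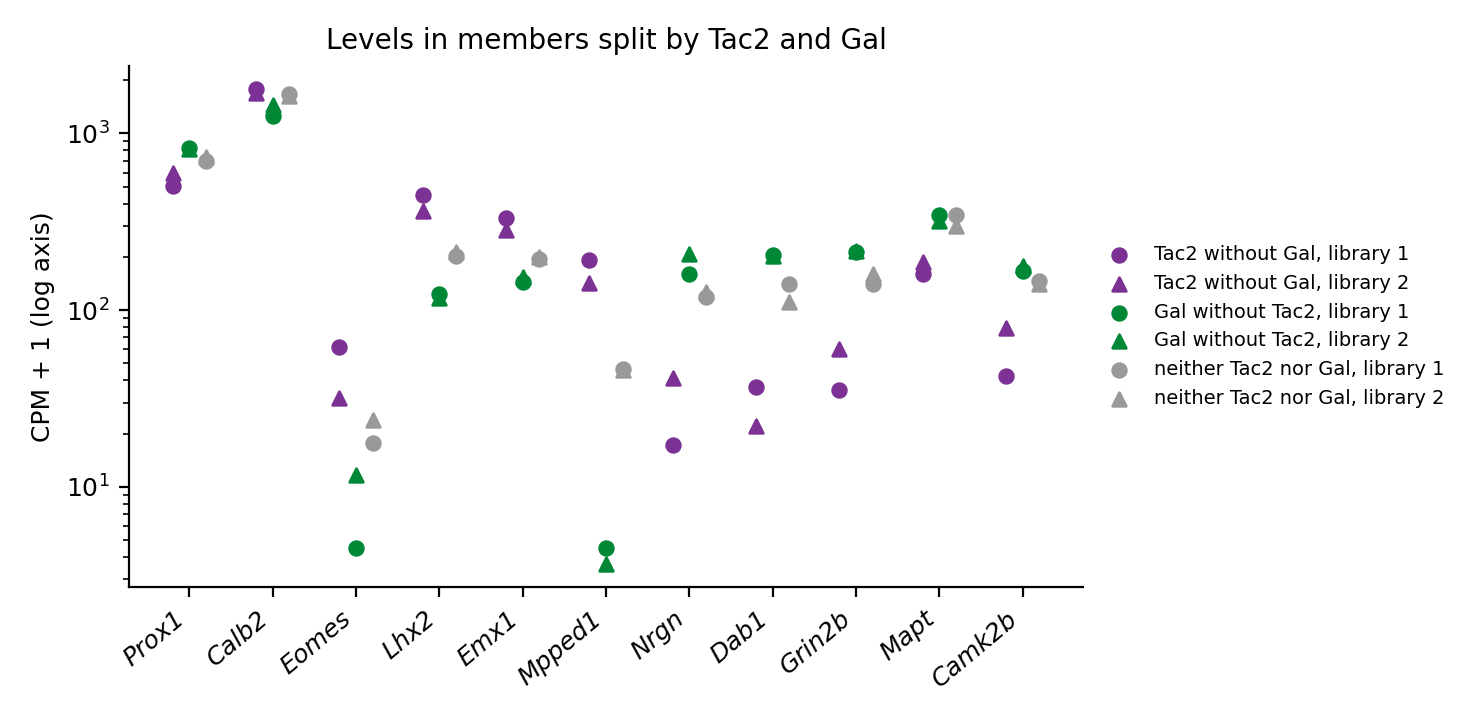
Levels (y axis, CPM + 1, log axis) of 11 genes in members with Tac2 and no Gal, with Gal and no Tac2, and with neither, as a circle for library 1 and a triangle for library 2. Lhx2, Emx1 and Mpped1 are highest in Tac2 members and Nrgn, Dab1, Grin2b and Camk2b in Gal members in both libraries.

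At the edge of the rule some values differed and others did not. Members with exactly 1 Eomes UMI, 58 and 38 cells, had Tac2 at 1122 and 443 CPM and Gal at 17.7 and 73.8 CPM, and the 18 and 5 cells just outside, with 2 Eomes UMIs, had Tac2 at 1249 and 859 CPM and Gal at 0 CPM in both libraries. Members with exactly 1 Prox1 UMI had Calb2 at 1608 and 1602 CPM, near the level of all members. Their Tac2, at 550 and 371 CPM, was above that of all members, and their Gal, at 131 and 85.1 CPM, was below it. Cells just outside, with 0 Prox1 UMIs, had Calb2 at 1387 and 1196 CPM, Tac2 at 516 and 412 CPM and Gal at 106 and 42.1 CPM. Members with exactly 1 division gene UMI, 38 and 41 cells, had Gal at 188 and 177 CPM, and the 6 and 3 cells with 2 had 0 and 497 CPM. Members with exactly 1 UMI of Dlx1, Dlx2 and Gad2, 24 and 23 cells, had Neurod1 at 860 and 979 CPM, and the 8 and 8 cells with 2 such UMIs had 563 and 648 CPM.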

How the data were processed

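Brain cells of 2 libraries were put through a 10x Genomics droplet kit that captures 3' ends (v3) and were sequenced on an MGISEQ-2000, per the labels' protocols. The authors deposited counts, whole numbers of UMIs for 32285 features and each barcode, not normalised, as the file headers and the values show. The submitters' processing notes name Cell Ranger 6.1.2 and mm10. Of the annotation release, the cell calling and the strand setting nothing is given in the sources used here. There were 12978 barcodes and 51452085 UMIs in library 1, and 19508 barcodes and 45532691 UMIs in library 2, with no barcode under 500 UMIs.

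The members, the classes and the 29 gene lists were chosen with earlier results of these data known. Counts of a class were summed per library (n = 2) and fitted with edgeR 4.0.16 in R 4.3.3: TMM scaling, filterByExpr, a block for the library, whose classes come from 1 suspension, and 4 classes in 1 fit with 3 residual degrees of freedom. The Calb2 fit had 5 classes and 4 residual degrees of freedom. P-values were two-sided and adjusted by Benjamini-Hochberg over all tested genes. The procedure was tested on simulated data. Named genes were the 10 called higher and the 10 called lower with the largest log2 fold change, at a mean of 50 CPM or more in the higher class and a UMI in both its libraries. Shares of cells with a UMI were taken after thinning to 2000 UMIs, and microglia were cells with at least 5 UMIs of Cx3cr1, P2ry12 and Csf1r. Doublets were marked with Scrublet in scanpy 1.11.5, by its own threshold in library 1 (559) and as the highest 6% in library 2 (717), where that threshold marked 1. Promoter windows came from RefSeq tables. Alternatives changed the scaling, the test (DESeq2 1.42.0), the filter, the block, the limits of the rule and of quality, doublets, shared barcodes and depth. A pair was added after seeing the data: cells with more than 3 UMIs of other-cell markers left out, and at least 2 Neurod1 UMIs in members and in Neurod1 cells without Prox1. Results of a few genes are not reported here, though the genes count in the lists.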

Additional observations from a re-analysis of the deposited data

How the results depend on the processing

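Against Neurod1 cells without Prox1 27 genes were higher and 144 lower in members, and the counts became 6 and 45 with the DESeq2 test, 55 and 237 with no filter on low counts, 5 and 19 with no replicate block, 9 and 75 with 0 UMIs of the excluded genes and 2 and 40 at a log2 fold change of 2. Higher calls were 43 with 2 UMIs of Neurod1 and Prox1. Lower calls were 222 without doublets and 75 under stricter quality limits. In the fits added after seeing the data, lower calls were 66 without cells of other markers, and with 2 Neurod1 UMIs in both classes 9 were higher and 27 lower. Against Eomes cells the counts of 926 and 903 became 395 and 408 at a log2 fold change of 2. Against Dlx cells 940 and 749 became 371 and 296 at that size, and the DESeq2 test gave 448 lower. For Calb2 members 1 gene was higher and 9 lower. These became 15 and 32 with no filter, 0 and 0 with no replicate block, 2 and 2 with 2 UMIs of Neurod1 and Prox1, 0 and 1 with 0 UMIs of excluded genes and 0 and 3 at a log2 fold change of 2. Higher calls were 2 under stricter quality, 5 at 2000 to 10000 UMIs, 4 without cells of other markers and 3 with 2 Neurod1 UMIs in both, and lower calls were 17 without doublets. The fit with no replicate block left 802 genes of the Calb2 split at an unadjusted p under 0.05, and 24 calls against Neurod1 cells without Prox1. The cause of these shifts was not tested. The share of members, 4.55%, was 2.51% with 2 UMIs of both genes and 5.87% under stricter quality, and single libraries gave 3.87 to 5.23%. Counts without 1 library could not be fitted, since no residual degrees of freedom were left. Log2 fold changes that turned their sign against Neurod1 cells without Prox1 were those of Atad2 (0.091 with 0 UMIs of excluded genes), Sox9 (0.074 with 2 Neurod1 UMIs in both) and Sparcl1 (0.13 without cells of other markers). Against Eomes cells they were Id3 (-0.35 with 2 UMIs of both genes), Rarres2 (1.02 without doublets, 0.92 at 2000 to 10000 UMIs) and Rgs5 (0.17 without doublets).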
